A study of Mus musculus with 9 samples.

Results

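Lipf encodes gastric lipase, and its transcript was followed in mouse oviduct over 9 Affymetrix arrays. The gene was found by its symbol in the platform's annotation, which gave it 1 probe set among 28214, or 1 gene among 19937 with a probe set of their own. It was chosen by its measured values in diestrus, known from earlier results of these arrays. Its diestrus levels and both differences that involve diestrus are therefore given as a description, without a test. Oviduct tissue of CD1 mice, an outbred stock, was taken from mature females in diestrus, from mature females in estrus and from sexually immature females of day 21, with 3 arrays in each group. Each array carried RNA pooled over 5 animals, and none of the animals had received hormones, so each value is the mean of a pool. The p-values given measure the spread between these pools, and whether pools of a group were collected separately was not stated in the labels.

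Gastric lipase is a secreted enzyme that remains active in acid and splits fatty acids from dietary triglycerides before food reaches the intestine. It is made by chief cells of the stomach in humans, while in rodents the serous glands of the tongue are its main source. It belongs to the acid lipase family, in which Lipa encodes the lysosomal enzyme that breaks down the cholesteryl esters and triglycerides of endocytosed lipoproteins, and Lipk, Lipm and Lipn are expressed in the epidermis. Diestrus is the stage at which corpora lutea of the ovary secrete progesterone, and estrus is the stage around ovulation and mating, which follows a rise of estrogen.

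Lipf lies on chromosome 19 in a cluster with its relatives. RefSeq's promoter sequences (build GRCm38.p6) held 1 entry each for Lipf, Lipa, Lipm, Lipn and Lipo3 of the family members measured. They are shown because these genes share a neighbourhood and differ in the values that follow. The 250 bases before the start of Lipf, chr19:33960998-33961247 on the plus strand, are given from 5′ to 3′, with a TATA-like motif (TATATAA) in capitals.
Lipf: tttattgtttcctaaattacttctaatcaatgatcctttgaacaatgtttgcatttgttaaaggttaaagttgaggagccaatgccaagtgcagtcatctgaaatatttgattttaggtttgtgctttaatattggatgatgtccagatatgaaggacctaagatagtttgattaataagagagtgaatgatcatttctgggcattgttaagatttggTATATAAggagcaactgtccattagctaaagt
The 60 bases before the start of the other 4 genes follow, read on each gene's own strand, with TATAAA in capitals where it occurs. They cover chr19:33590312-33590371 (minus strand) for Lipo3, chr19:34067298-34067357 (plus) for Lipn, chr19:34100883-34100942 (plus) for Lipm and chr19:34527475-34527534 (minus) for Lipa.
Lipo3: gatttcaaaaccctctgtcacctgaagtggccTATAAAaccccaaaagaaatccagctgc
Lipn: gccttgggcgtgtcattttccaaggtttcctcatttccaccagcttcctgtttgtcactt
Lipm: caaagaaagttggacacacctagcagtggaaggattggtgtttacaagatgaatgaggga
Lipa: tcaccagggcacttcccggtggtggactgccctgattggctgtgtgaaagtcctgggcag
Both strands of the 300-base window of each gene, from 250 bases before its start to 50 after it, were searched for 4 motifs. These were TATATAA (a longer TATA-like form), then TATAAA (the TATA box), then AGAACA (part of a site for the progesterone, androgen and glucocorticoid receptors) and then GGTCA (part of a site for the estrogen receptor). Matches of the TATA forms can overlap each other. In Lipf the only match was TATATAA, which began at base -32 from the start. Lipo3 had TATAAA at base -28 and GGTCA at base -141, Lipa had TATAAA on the opposite strand at base -239, and Lipm and Lipn had no match. Of 32851 windows of that length, 3.24% held TATATAA, 13.6% TATAAA, 19.0% AGAACA and 40.5% GGTCA. These matches describe letters and do not show that a factor binds.

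Lipf was high on every diestrus array. Its RMA value, a log2 intensity after robust multi-array averaging, was 12.43, 11.88 and 12.13 on the 3 diestrus arrays. It was 8.93, 8.93 and 7.87 on the estrus arrays, and 8.84, 8.72 and 8.64 on the immature arrays. The diestrus arrays lay apart from the other 6, while the estrus and immature arrays overlapped. Within the ranking of all probe sets on an array, Lipf stood above 96.8% to 98.5% of them in diestrus, above 27.7% to 52.0% in estrus and above 45.5% to 49.5% in immature oviduct. Probe sets bind with different strength, so this rank tracks Lipf across arrays and does not order it against other RNAs. The plot of Lipf on each array shows these values against the quartiles of the array.

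**Figure D1:**
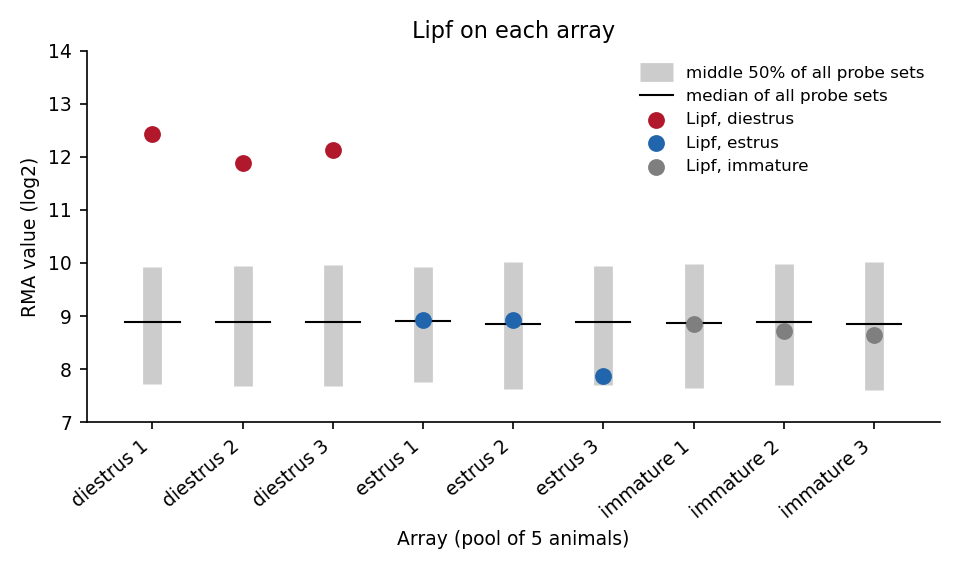
RMA value of Lipf (log2, vertical axis) on each of the 9 arrays (horizontal axis), with the median of all probe sets as a black line and their middle 50% as a grey bar. The 3 diestrus points lie between 11.88 and 12.43, above the upper quartile of their arrays, and the other 6 points lie at most 0.09 above the median of their arrays.

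The level averaged 12.15 ± 0.28 in diestrus, 8.58 ± 0.61 in estrus and 8.73 ± 0.10 in immature oviduct (SD, n = 3 each). The log2 difference was 3.57 ± 0.26 for diestrus minus estrus and 3.41 ± 0.26 for diestrus minus immature (SE from the limma fit of all 9 arrays). These are 11.9-fold and 10.6-fold in intensity. Even the lowest diestrus array exceeded the highest estrus array 7.70-fold and the highest immature array 8.19-fold in intensity. In both comparisons the difference was the largest upward difference of the 28214 probe sets, as would be so for a gene picked for its size. The comparisons share the diestrus arrays and are not independent of each other. Because the immature and estrus values lay near or below the median of their arrays, and no detection call was used here, Lipf was not shown to be above background outside diestrus. A fold in RNA amount was thus not obtained from these intensities. The tissue holds several cell types, so more cells that express Lipf and more Lipf RNA per cell cannot be told apart.

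The gap between the lowest diestrus array and the highest of the other 6 was 2.94 log2 units for Lipf. Over all probe sets, 598 (2.12%) had their 3 diestrus arrays above the other 6. The next gaps were 0.57 for AW551984, 0.57 for Abca1, 0.55 for Glb1l3, 0.52 for Ccn2 and 0.44 for Mfge8. Ccn2 and Mfge8, which encode a matrix-associated growth factor and a protein that tags dying cells for uptake, are named here after their values were seen.

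The difference between estrus and immature oviduct leaves out the diestrus arrays for which Lipf was chosen, and was tested. Its SE, interval and p rest on the spread within all 3 groups, diestrus included. Lipf was chosen with earlier results of these arrays known, so this test is not fully independent of that choice. The difference was -0.16 ± 0.26 (estrus minus immature, SE), with a 95% interval of -0.73 to 0.42 and a limma p of 0.920 after Benjamini-Hochberg adjustment over all probe sets. Two-sided and unadjusted, p was 0.558. The interval allows estrus to lie up to 0.73 below or up to 0.42 above immature oviduct, so equal levels were not shown. The array estrus 3 set the sign: without it, the difference was 0.20 (adjusted p = 0.968). The spread of Lipf between pools differed by group, with estrus 3 apart from the other estrus arrays. Its residual SD over all groups was 0.39, against a median of 0.10 over all probe sets, and 99.1% of probe sets had a smaller one. Without estrus 3 the SE of diestrus minus immature was 0.13, against 0.26 with all arrays.

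The arrays differed in genes typical of neighbouring tissue, whose values are given beside those of Lipf. The part of such tissue in the Lipf values was not tested. Inha, the inhibin subunit of ovarian granulosa cells, was 9.18, 10.94 and 10.33 on diestrus 1, 2 and 3. Akr1c18, whose enzyme inactivates progesterone in corpora lutea, was 7.49, 11.53 and 8.05 on the same arrays. Diestrus 2, the array highest in Akr1c18, had the lowest Lipf of the group, and diestrus 1, the lowest in both markers, had the highest. Star, another ovary marker, was 8.72, 9.21 and 9.12 on diestrus 1, 2 and 3, above the other 6 arrays as for Lipf. Over the 9 arrays, Pearson r with Lipf was 0.05 for Inha, 0.53 for Akr1c18 and 0.89 for Star. Diestrus 3 had the highest smooth muscle and homeobox values, with Myh11 at 12.33 and Hoxd10 at 10.21, against 11.29 and 8.57 on diestrus 1. Hoxd10, like Cyp11a1 in the heat map and the epithelial and neighbouring genes Pax8, Foxj1 and Acta2 named later, was picked after its values were seen. Immature 2 reached 12.42 for Inha and had a Lipf value of 8.72, between those of the other immature arrays. Averaged over the 17 measured of 19 ovary markers, the level ran between 8.11 and 9.06 in diestrus, between 8.11 and 8.25 in estrus and between 8.09 and 9.07 in immature oviduct. The 12 smooth muscle and posterior Hox genes averaged between 10.16 and 10.88 in diestrus, between 10.18 and 10.22 in estrus and between 10.14 and 10.27 in immature oviduct. The fat cell gene Adipoq was 7.66, 7.22 and 7.54 in diestrus, 7.49, 7.43 and 7.57 in estrus and 8.37, 7.92 and 7.62 in immature oviduct. The oviduct epithelium markers Pax8, Foxj1 and Krt8 were present on all arrays at 10.98 or more, and the mean over 12 measured epithelial markers ran between 11.39 and 11.66 in diestrus, between 11.47 and 11.57 in estrus and between 11.51 and 11.62 in immature oviduct.

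**Figure D2:**
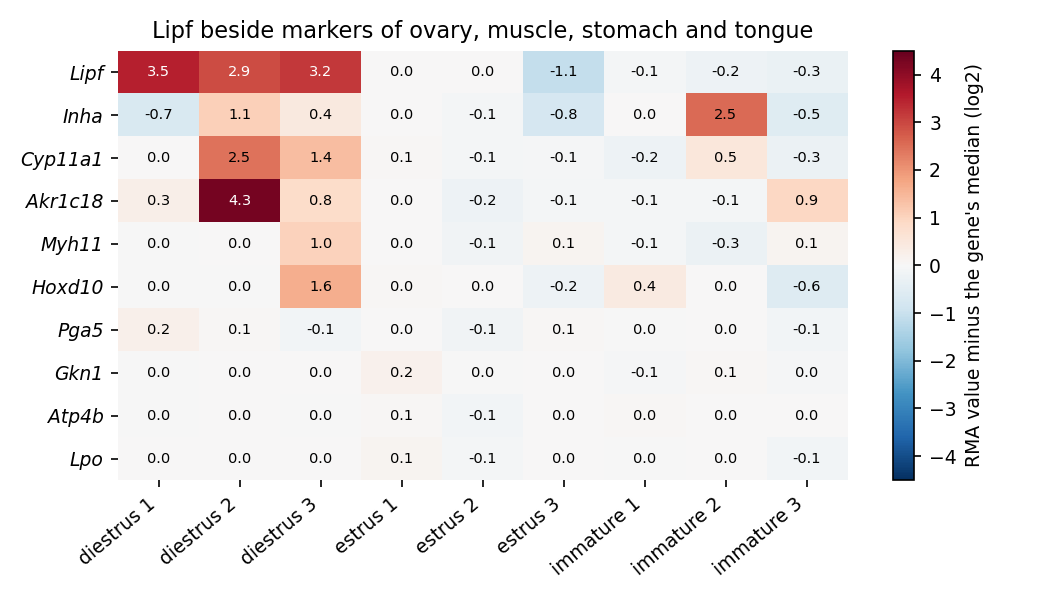
RMA value minus the median of the gene over the 9 arrays (log2, colour and printed value) for Lipf, the ovary markers Inha, Cyp11a1 and Akr1c18, the muscle and homeobox genes Myh11 and Hoxd10, the stomach genes Pga5, Gkn1 and Atp4b, and Lpo of salivary and lingual glands. Lipf is raised on all 3 diestrus columns. The ovary genes shown peak on diestrus 2 or immature 2, and Myh11 and Hoxd10 on diestrus 3. The last 4 genes vary by at most 0.39 over all arrays. Not shown are Star, Chia1 and Dcpp1 of the ovary, stomach and salivary lists, whose diestrus arrays lay above the other arrays.

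Of 20 measured stomach markers, 18 varied by less than 1 log2 unit over the 9 arrays, and the 2 others were Chia1 and Ctse. Ctse, the intracellular protease cathepsin E, was 10.70, 10.75 and 10.38 in diestrus, 10.24, 10.09 and 10.50 in estrus and 10.34, 9.73 and 10.13 in immature oviduct. Its groups overlapped, and the difference was 0.55 ± 0.16 for diestrus minus immature (SE; limma adjusted p = 0.179). Pga5 (a pepsinogen) was 8.60, 8.42 and 8.24 in diestrus, 8.36, 8.21 and 8.43 in estrus and 8.35, 8.36 and 8.24 in immature oviduct. Over the 9 arrays the whole range was 0.19 for Pgc (pepsinogen C), 0.23 for Cblif (intrinsic factor), 0.27 for the gastrokine Gkn1, 0.40 for the trefoil peptide Tff1 and 0.18 for Atp4b of the proton pump. These 6 markers were not shown to be above background on any array. The 20 markers averaged between 8.28 and 8.35 in diestrus, between 8.20 and 8.33 in estrus and between 8.17 and 8.22 in immature oviduct. For diestrus minus immature, limma called 1 of the 20, as a higher one, beside 1.00% of all probe sets called in that comparison (0.294% higher and 0.705% lower). It was Chia1, an acidic chitinase of stomach and lung, at 9.90, 10.09 and 10.01 in diestrus, 9.60, 9.78 and 9.52 in estrus and 9.13, 8.86 and 9.50 in immature oviduct. Its diestrus arrays lay above all the others, as for Lipf. Chia1 rose by 0.83 ± 0.14 in diestrus against immature oviduct (SE; limma adjusted p = 0.0329). That call was lost in 6 of the 9 fits that left out 1 array, and held without diestrus 3, estrus 2 or immature 3. For diestrus minus estrus and for estrus minus immature limma called none of the 20, beside 0.159% and 0.0851% of all probe sets. In each of these, 1 of the 20 had an unadjusted p under 0.05. Of all 28214 probe sets, 3776, 2631 and 1839 had one for diestrus minus immature, diestrus minus estrus and estrus minus immature.

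Among 18 measured markers of salivary and lingual glands, limma called none in any comparison. At an unadjusted p under 0.05 there were 0, 3 and 2 for diestrus minus immature, diestrus minus estrus and estrus minus immature. Over all probe sets, 1.00%, 0.159% and 0.0851% were called in these comparisons, so no call among 18 markers says little about them. Lpo, the lactoperoxidase of saliva, varied by 0.24 over the 9 arrays and the lipocalin Lcn3, made by glands of the tongue and nose, by 0.27. The widest ranges on the list were 2.55 for Dcpp2, 0.93 for Dcpp3 and 0.76 for Dcpp1, secreted proteins of salivary glands encoded by close gene copies. The 3 diestrus arrays of Dcpp1 lay above the other 6, as for Lipf. The list averaged between 7.62 and 7.78 in diestrus, between 7.47 and 7.69 in estrus and between 7.62 and 7.69 in immature oviduct. The 19 markers of pancreatic acini averaged between 7.996 and 8.07 in diestrus, between 7.92 and 8.08 in estrus and between 7.87 and 7.99 in immature oviduct. Of them, 1 was called for diestrus minus immature, beside 1.00% of all probe sets. It was Reg1, a secreted lectin-like protein, at 8.30, 8.53 and 8.21 in diestrus, 7.82, 7.83 and 7.89 in estrus and 7.92, 7.67 and 7.72 in immature oviduct. Its 3 diestrus arrays lay above the other 6. Diestrus minus immature was 0.58 ± 0.09 (SE, limma adjusted p = 0.0296). The call held without diestrus 3, estrus 2 or immature 1 and was lost in the 6 other fits without 1 array.

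Limma called 1.00%, 0.159% and 0.0851% of all probe sets for diestrus minus immature, diestrus minus estrus and estrus minus immature. None of the other 5 measured acid lipases was called in any of the 3 comparisons, with 1 at an unadjusted p under 0.05. That 1 was Lipa, the lysosomal member, at 9.84, 9.89 and 10.09 in diestrus, 9.15, 9.64 and 9.47 in estrus and 9.67, 9.55 and 9.67 in immature oviduct. Its 3 diestrus arrays lay above the other 6. The difference was 0.52 ± 0.12 for diestrus minus estrus and 0.31 ± 0.12 for diestrus minus immature (SE; limma adjusted p = 0.147 and 0.283). The remaining members had overlapping groups. Lipo3 varied by 0.47 over the 9 arrays, Lipn by 0.38, Lipk by 0.30 and Lipm by 0.27, against 4.56 for Lipf. Their differences for diestrus minus immature ran from 0.02 (Lipn and Lipo3) to 0.05 (Lipk), and for diestrus minus estrus from -0.01 (Lipm) to 0.09 (Lipo3). The median difference of the 5 was 0.03 for diestrus minus immature, 0.05 for diestrus minus estrus and -0.04 for estrus minus immature, beside 0.01, -0.01 and 0.01 over all probe sets. Lipo1, Lipo2, Lipo4 and Lipo5 had no probe set of their own and were not analysed here. A signal of theirs within other probe sets was not tested.

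**Figure D3:**
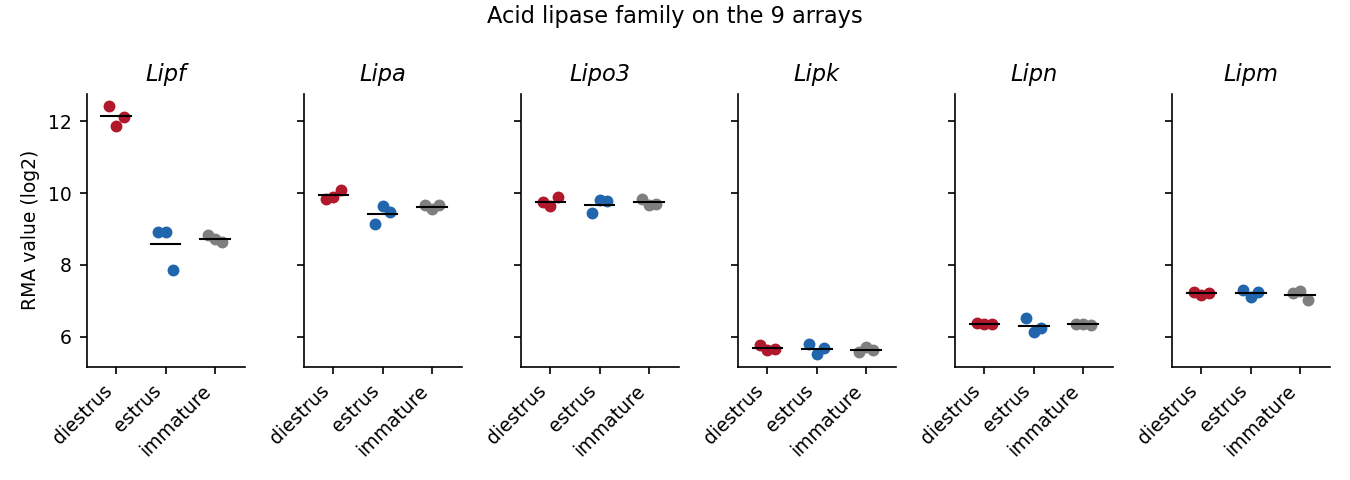
RMA values (log2, vertical axis) of the 6 measured acid lipase genes in the 3 groups (horizontal axis), 1 point per array with the group mean as a line. Lipf spans 4.56 log2 units with diestrus on top, and the other 5 genes span at most 0.94. Heights of different genes are not comparable, since their probe sets bind differently.

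Genes next to Lipf on the chromosome did not share its step. In the RefSeq gene order, 15 of the 20 nearest protein-coding genes (10 on each side) were measured, and their differences in the 3 comparisons ran from -0.25 to 0.52, the highest being Lipa. Lipk, Lipn and Lipm, among the nearest, were not shown to be above background on any array. Limma called 1 of the 15, for diestrus minus immature, where it called 1.00% of all probe sets. This was Ankrd22, the 4th gene beyond Lipf on the side of Lipk, at 8.08 in diestrus, 7.80 in estrus and 7.66 in immature oviduct (diestrus minus immature 0.42 ± 0.07 SE, adjusted p = 0.0356; called without diestrus 3, estrus 2 or immature 1 and lost in the 6 other fits without 1 array), and it is singled out after its values were seen. Acta2, the smooth muscle actin gene 6 genes away, differed by -0.04 ± 0.15 for diestrus minus immature (adjusted p = 0.944).

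Other enzymes that split triglycerides and phospholipids are set beside Lipf, whose own diestrus differences were not tested. Limma called 1.00%, 0.159% and 0.0851% of all probe sets for diestrus minus immature, diestrus minus estrus and estrus minus immature. At an unadjusted p under 0.05 these were 3776, 2631 and 1839 of 28214. A list of this size without a call thus says nothing particular. Of 18 measured secreted lipases and cofactors, limma called none in any comparison, with 2, 0 and 2 at an unadjusted p under 0.05 for diestrus minus immature, diestrus minus estrus and estrus minus immature. Lpl, the lipoprotein lipase of capillary walls, was 9.38, 9.56 and 9.88 in diestrus, 9.47, 9.52 and 9.41 in estrus and 10.09, 9.84 and 9.60 in immature oviduct. Its highest values lay on immature 1 and diestrus 3. Lmf1, which lipases such as Lpl need for their folding, differed by -0.17 ± 0.07 for diestrus minus immature (adjusted p = 0.352). Of 19 intracellular lipases and their regulators, none was called (5, 0 and 2 at an unadjusted p under 0.05). Ces1d, a carboxylesterase that acts on stored triglyceride, differed by 0.43 ± 0.15 for diestrus minus immature (adjusted p = 0.257). The median difference for diestrus minus immature was 0.07 over the secreted list and -0.03 over the intracellular list.

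Among genes that handle fatty acids, 2 of 21 genes of uptake and binding fell and 1 of 18 oxidation genes rose in diestrus against immature oviduct. Over all probe sets, 0.705% were called lower and 0.294% higher in that comparison, and with so few members called nothing particular to these lists is drawn from the counts. Mfsd2a, a transporter of lysophospholipid-bound fatty acids, was 9.88, 9.96 and 9.86 in diestrus, 10.21, 10.31 and 10.32 in estrus and 10.40, 10.59 and 10.59 in immature oviduct. The groups did not overlap. For diestrus minus immature it fell by 0.63 ± 0.07 (SE; limma adjusted p = 0.00604), and for diestrus minus estrus the difference was -0.38 ± 0.07 (adjusted p = 0.0705). Fabp5, a cytosolic fatty acid binding protein, was 9.80, 9.82 and 9.36 in diestrus, 10.15, 10.13 and 10.42 in estrus and 10.83, 10.31 and 10.53 in immature oviduct, a fall of 0.90 ± 0.16 against immature oviduct (adjusted p = 0.0362) that was lost in 8 of 9 fits without 1 array and held without diestrus 3. These 2 were the called members among 21 measured genes of fatty acid uptake and binding, whose median difference was -0.03. Cpt1a, which admits long-chain fatty acids to mitochondrial oxidation, was 11.14, 11.23 and 11.10 in diestrus, 10.80, 10.90 and 10.81 in estrus and 10.84, 10.75 and 10.84 in immature oviduct. The diestrus arrays lay above the other 6. It rose by 0.35 ± 0.06 against immature oviduct (adjusted p = 0.0306), the only call among 18 oxidation genes, which held without diestrus 3, estrus 1 or estrus 2 and was lost in the 6 other fits without 1 array. In the other comparisons, diestrus minus estrus and estrus minus immature, none was called for either list, beside 0.159% and 0.0851% of all probe sets. At an unadjusted p under 0.05 there were 2 and 3 for diestrus minus estrus, and 2 and 4 for estrus minus immature. Of 21 genes of triglyceride synthesis and lipid droplets and of 10 fatty acid receptors, limma called none in any comparison (3, 1 and 0 of the 21 and 1, 1 and 0 of the 10 at an unadjusted p under 0.05, in the same order of comparisons). Dgat2, which forms triglyceride, differed by 0.24 ± 0.10 (adjusted p = 0.346) and the fatty acid sensor Pparg by -0.24 ± 0.09 (adjusted p = 0.271) for diestrus minus immature.

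Transcripts of the hormone receptors were compared over the same stages. Of 11 measured steroid receptor genes, limma called none in any comparison, with 1, 1 and 0 at an unadjusted p under 0.05. Over all probe sets it called 1.00%, 0.159% and 0.0851% for diestrus minus immature, diestrus minus estrus and estrus minus immature. No call among 11 genes thus says nothing particular about the receptors. Esr1, the estrogen receptor, was 12.49, 12.54 and 12.57 in diestrus, 12.60, 12.65 and 12.59 in estrus and 12.57, 12.49 and 12.57 in immature oviduct. Pgr, the progesterone receptor, was 10.82, 10.69 and 11.12 in diestrus, 11.16, 11.10 and 11.27 in estrus and 11.14, 10.98 and 10.88 in immature oviduct. Its difference for diestrus minus estrus was -0.30 ± 0.11 (SE; limma adjusted p = 0.398). Of 7 measured plasma cell markers, limma called 1 for diestrus minus immature, none for diestrus minus estrus (0 at an unadjusted p under 0.05) and 1 for estrus minus immature. Both calls were Jchain, of antibody-secreting cells, at 9.22, 8.90 and 9.36 in diestrus, 8.84, 9.51 and 8.81 in estrus and 7.30, 6.92 and 6.79 in immature oviduct. Its difference was 2.16 ± 0.20 for diestrus minus immature and 2.05 ± 0.20 for estrus minus immature (SE; limma adjusted p = 0.00301 and 0.0182). The other 6 differed by -0.16 (Derl3) to 0.37 (Igha) for diestrus minus immature, without a call.

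Genes were ordered by likeness to Lipf over the 9 arrays in 2 ways, among 437 probe sets with 1 symbol and a range of at least 1 log2 unit, as a description without a test. Predicted gene models, receptors for smell, taste and pheromones, and small RNAs had been left out of the 437. Lipf falls into a high cluster of 3 arrays and a low cluster of 6, so a high Pearson r here says little more than that a gene was high on the diestrus arrays, and all genes share those arrays and their normalization. By Pearson r the first was Abca1 (r = 0.965), the transporter that exports cholesterol from cells. It was 10.31, 10.52 and 10.43 in diestrus, 9.52, 9.74 and 9.24 in estrus and 9.43, 9.64 and 9.45 in immature oviduct. Estrus 3 was the lowest array for Abca1, as for Lipf. Then came the galactosidase-like genes Glb1l3 (r = 0.951) and Glb1l2 (r = 0.900), Ctsd (r = 0.898), the lysosomal protease cathepsin D, Adam28 (r = 0.897), a membrane metalloprotease, AW551984 (r = 0.897), Cxcl15 (r = 0.895), a chemokine, and Star (r = 0.891), which brings cholesterol into mitochondria for steroid synthesis. Star was 8.72, 9.21 and 9.12 in diestrus, against 8.38, 8.43 and 8.10 in estrus and 8.12, 8.43 and 8.29 in immature oviduct. Its highest array was diestrus 2, as for Akr1c18. It was the 1 ovary marker of 17 that limma called (diestrus minus immature, adjusted p = 0.0463), beside 1.00% of all probe sets. That call was lost in 8 of 9 fits without 1 array and held without diestrus 1. The differences of these 8 genes for diestrus minus immature ran from 0.51 ± 0.12 (Adam28) to 1.02 ± 0.20 (AW551984), against 3.41 ± 0.26 for Lipf (SE).

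**Figure D4:**
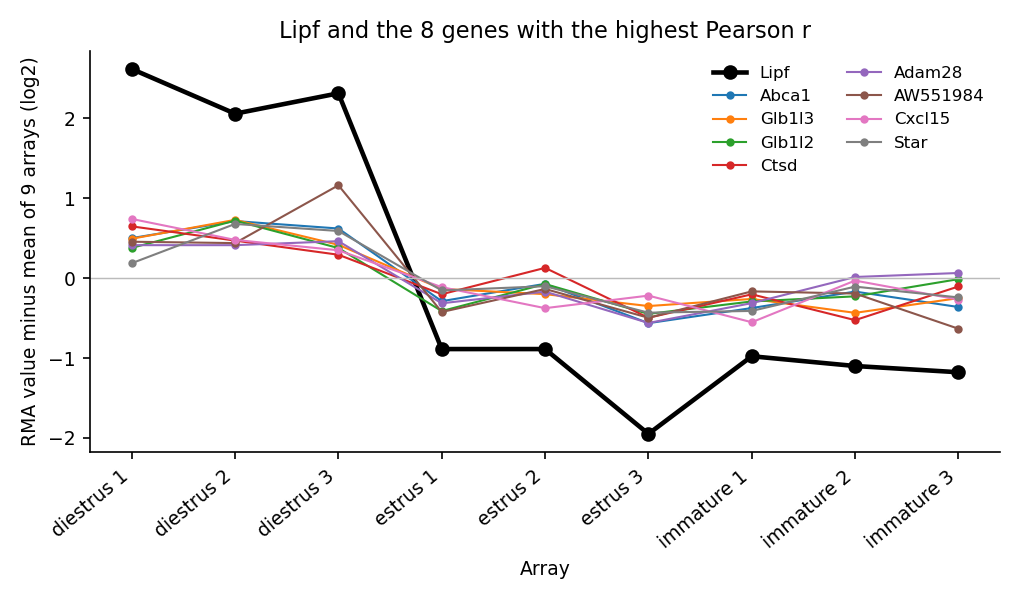
RMA value minus the mean over the 9 arrays (log2, vertical axis) for Lipf (black) and the 8 genes with the highest Pearson r, by array (horizontal axis). Lines join the points of a gene and stand for no order of the arrays. On diestrus arrays the 8 genes lie above their means and below Lipf.

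The second measure, the root mean square distance between centred values, also takes size into account. A gene with the same value on all arrays would lie 1.68 from Lipf, and the nearest gene, the methyltransferase gene Inmt, lay at 1.17. It was 10.37, 10.87 and 10.93 in diestrus, 9.29, 10.21 and 9.57 in estrus and 9.43, 9.08 and 9.34 in immature oviduct. The next were the probe set annotated as Adck1 (1.19), the circadian repressor Nr1d1 (1.20), AW551984 (1.21), Serpina1c (1.22), Abca1 (1.25), Enpp3 (1.25), a nucleotide-splitting enzyme of the cell surface, and Ly6f (1.27). Serpina1c belongs to the antitrypsin genes and Ly6f to the Ly6 genes, whose near-identical copies can share probes, so their values are uncertain. Nr1d1, whose level follows the time of day, was 11.89, 12.11 and 11.48 in diestrus, 10.88, 11.12 and 10.13 in estrus and 10.04, 11.04 and 11.17 in immature oviduct. Its diestrus arrays lay above the other 6, and the sources used here do not state the hour of collection. A part of collection time in the Lipf values was not tested.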

How the data were processed

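The authors deposited log2 values made with RMA in Affymetrix Expression Console, per the submitters' processing notes. RMA includes quantile normalization between arrays, which forces like distributions on them. No log base is recorded. The range of 4.39 to 14.59 was checked and is that of a log2 scale. The sources used here give no versions. Precision is limited by the 9 arrays.

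None of the 28214 probe sets was left out of the fit. The platform annotation gave 21640 of them 1 symbol, 1321 several and 5253 none. For genes other than Lipf with several probe sets, that with the highest mean stood for the gene. The sources used here do not name the annotation's build, so coordinates are printed for RefSeq's promoter sequences only. All 3 groups entered a single limma 3.58.1 fit (R 4.3.3; lmFit, eBayes, two-sided), with 3.60 degrees of freedom from the prior beside 6 residual ones, and a call needed a p under 0.05 once adjusted by Benjamini-Hochberg across every probe set. Python 3.11.15, pandas 2.3.3 and matplotlib 3.10.9 served for sequences and plots. The fit was tested on simulated data.

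Lipf, the gene lists and the tests were chosen with earlier results of these data known. Named genes were Lipf, its family, up to 3 called and 2 abundant members per list, the 8 most alike by each measure, and a list of marker genes, of which Pnlip had no probe set of its own and some are left out of the text. Same-numbered arrays of different groups were compared for pairing: their deviations from the group means correlated between -0.29 and 0.17, over 0.1 in 3 of 9 pairs, so the numbers were not taken as pairs. Alternatives were the replicate number as a block, array weights, cyclic loess, centring on the median, a repeated quantile normalization, a robust prior with an intensity trend, an intensity filter, fits of just the arrays compared, and each array left out. Leaving out immature 2, diestrus 2 and diestrus 3 together was added after seeing the data. With 1 Lipf probe set, no mean over probe sets was needed.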

Additional observations from a re-analysis of the deposited data

How the results depend on the processing

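The Lipf difference for diestrus minus immature ran between 3.27 and 3.55 with single arrays left out and between 3.33 and 3.69 under the other alternatives. The highest value, 3.69, came from leaving out immature 2, diestrus 2 and diestrus 3 together, which leaves diestrus 1, the array highest in Lipf, alone in its group, so a larger difference was fixed by that choice. For diestrus minus estrus it ran between 3.22 and 3.75 with single arrays left out and was 4.12 with array weights, which gave estrus 3 a weight of 8.16 and every other array at most 2.16. For estrus minus immature it ran between -0.33 and 0.20 with single arrays left out, turning to 0.20 without estrus 3, and was -0.79 with array weights (limma adjusted p = 0.0761). The other alternatives gave adjusted p between 0.573 and 1 for it. The 282, 45 and 24 probe sets called for diestrus minus immature, diestrus minus estrus and estrus minus immature became 41 to 533, 1 to 105 and 1 to 95 with single arrays left out, and 1288, 3331 and 1023 with array weights. With the replicate block they became 121, 13 and 4, and uptake and binding kept 1 call and oxidation 0 (7 at an unadjusted p under 0.05). The Lipf differences cannot move under that block, since every replicate number occurs in each group. Their SE became 0.21, against 0.26 without the block. Of 9 arrays, 1 correlated best with its own number in both other groups. A fit of only the arrays compared gave 85 calls for diestrus minus immature and 0 for diestrus minus estrus (2256 at an unadjusted p under 0.05 in limma), 1 in uptake and 0 in oxidation (6 unadjusted). Leaving out immature 2, diestrus 2 and diestrus 3 gave 3, 0 (1483 unadjusted) and 2 calls, and 0 in uptake and oxidation (3 and 4 unadjusted). The intensity filter gave 69 calls for diestrus minus estrus. Cyclic loess gave 5 for estrus minus immature and 1 in uptake, and quantile normalization 1 in uptake. With single arrays left out, uptake had 1 to 2 calls, oxidation 0 to 1 and intracellular lipases 0 to 1. Array weights gave 1 acid lipase other than Lipf, 1 secreted lipase, 2 intracellular lipases, 4 uptake, 4 triglyceride, 4 oxidation, 1 fatty acid receptor and 2 steroid receptor genes. The causes of these shifts were not tested. Fits that drop arrays also rest on fewer of them, yet leaving out diestrus 3 raised the calls to 533, 105 and 95. Of the called genes named, Mfsd2a and Jchain were called in 17 of 18 alternatives, Cpt1a and Chia1 in 9, Reg1 and Ankrd22 in 7, and Fabp5 and Star in 5.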

Other observations

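Among the salivary gland genes set beside Lipf were the demilune cell and parotid protein genes, none of which passed the test in any comparison. Dcpp2 was 7.88, 7.29 and 7.29 in diestrus, 6.89, 5.80 and 6.08 in estrus and 8.35, 7.68 and 7.91 in immature oviduct. The difference was 1.23 ± 0.28 for diestrus minus estrus and -1.72 ± 0.28 for estrus minus immature (SE; limma adjusted p = 0.147 and 0.0864). Dcpp1 was 13.53, 13.47 and 13.37 in diestrus, 13.06, 13.11 and 12.77 in estrus and 13.31, 13.20 and 13.30 in immature oviduct, with a difference of 0.48 ± 0.09 for diestrus minus estrus (adjusted p = 0.0871). The means of Dcpp1, like those of Dcpp3 (9.18 in diestrus, 8.75 in estrus and 8.97 in immature oviduct), were highest in diestrus, as for Lipf, and lowest in estrus. For Lipf the order of estrus and immature oviduct was not resolved. The diestrus and immature arrays of Dcpp3 overlapped, and Dcpp2 was highest in immature oviduct. The Dcpp genes are close copies whose probe sets can share signal.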
